A study of Homo sapiens with 12 samples.

Results

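Chromatin accessibility was examined at 10 genes of the NRF2 antioxidant response, out of 19974 protein-coding genes on the chromosomes used. The members were listed by gene name, with no threshold on a measured value: the regulators NFE2L2 and KEAP1, the glutathione genes GCLC, GCLM, SLC7A11 and GPX4, the thioredoxin pathway genes TXNRD1 and SRXN1, and the quinone and heme enzymes NQO1 and HMOX1. All peaks that touched the annotated span of a gene (RefSeq, GRCh38) or the 5 kb on either side of it were taken, and this stretch is called the window of the gene. Peaks of the 12 libraries that overlapped by at least 1 bp were merged into regions, which gave 110 regions in the 10 windows out of 178040 in all. All 10 members carried peaks in every library, so all 10 were among the 16974 genes tested (a peak in at least 3 libraries).

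Open chromatin was mapped by ATAC-seq, which uses a transposase to insert sequencing adapters wherever DNA is accessible. MIAPaCa2, an established line from a pancreatic ductal adenocarcinoma, was used. Parental cells and cells of the resistant phenotype, which had been kept in oxamate until surviving cells grew out, were each profiled untreated and treated with oxamate, a pyruvate analog that blocks lactate dehydrogenase. The survivors were kept as a population and the sources used here describe no clones, so the resistant arm is 1 selected population of 1 cell line. Each of the 4 groups had 3 libraries, and the labels do not say whether replicates were separate cultures. The p-values below therefore measure the spread between these libraries, which may be technical.

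NRF2, the transcription factor encoded by NFE2L2, is held at a low level by KEAP1, an adaptor that hands it to a CUL3 ubiquitin ligase for destruction. Electrophiles and oxidants modify cysteines of KEAP1, NRF2 then accumulates, pairs with small MAF proteins and binds antioxidant response elements of genes for glutathione synthesis, thioredoxin reduction, NADPH supply and quinone and heme breakdown. The pathway is often switched on in pancreatic carcinomas, where it supports redox balance.

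The lists hold no read counts, so the measure was the number of bases of a window that lay under peaks, in bp per library. The libraries held 45748 to 62414 peaks and covered 13.8 to 33.7 Mb. The mean coverage was 23.7 ± 2.64 Mb in parental untreated, 17.2 ± 2.97 Mb in parental treated, 28.9 ± 4.28 Mb in resistant untreated and 26.6 ± 4.77 Mb in resistant treated libraries (SD, n = 3 each). The narrowest peak of a list, which MACS2 sets to the mean fragment length when no other minimum is given, measured 67 to 87 bp in parental and 94 to 124 bp in resistant libraries, without overlap. Relative depth, recovered from the peak statistics with the shallowest library at 1, reached 2.77, and the deepest group on average was parental treated, the group with the fewest covered bases. Phenotype, fragment length and total coverage moved together and cannot be told apart. Many differences in bp are therefore given beside the same difference per Mb covered in the library. Those given in bp alone carry the same limit. The epithelial and mesenchymal genes KRT8, KRT18 and VIM were marked by peaks at most 1 kb from either end of the gene in 12 of 12 libraries. The blood and liver genes PTPRC, CD3E and ALB were so marked in 0 of 12, as were CDKN2A and MTAP, which are deleted in this line.

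The promoter sequences show where the searched response element lay under the peaks. In RefSeq promoter windows (GRCh38.p14, 250 bases before and 50 after a start), the core TGACNNNGC was searched on both strands, so that it reads GCNNNGTCA on the other strand. It occurred in 13.3% of 35116 promoters and in 4 of the 13 windows of 8 members. HMOX1 and SLC7A11 had no entry. The AP-1 site TGACTCA, which can share its bases with the core as spelled here, was in 4.95% of promoters and in 0 of the 13. The matches with their neighbouring bases are printed 5′ to 3′ on the strand of the gene, with the core in capitals:

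GCLM, chr1:93909431-93909494, minus strand: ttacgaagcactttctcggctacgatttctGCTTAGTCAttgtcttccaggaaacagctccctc

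KEAP1, chr19:10502807-10502835, minus strand: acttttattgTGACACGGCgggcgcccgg

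KEAP1, chr19:10502784-10502812, minus strand: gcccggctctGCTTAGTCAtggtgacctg

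TXNRD1, chr12:104215650-104215718, plus strand: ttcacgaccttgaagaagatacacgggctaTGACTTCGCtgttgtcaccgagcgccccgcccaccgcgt

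TXNRD1, chr12:104215741-104215779, plus strand: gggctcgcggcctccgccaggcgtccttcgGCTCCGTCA

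TXNRD1, chr12:104286920-104286948, plus strand: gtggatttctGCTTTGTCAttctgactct

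Of these 6 stretches, 5 lay wholly under a peak in 12 libraries, and the one farthest upstream of the first TXNRD1 start did so in 3. These counts are for the printed stretches with their neighbouring bases and not for the core alone. The core of that TXNRD1 stretch begins at -99 from the start. In the 6 parental libraries the peak there began at -0.104 or -0.13 kb, so the core itself lay under it. In every library at least 154 of the 300 bases of this window were covered. Both KEAP1 matches belong to the start at 10502771, and the last TXNRD1 match to the inner start at 104287032. A match is a description of letters and not a shown binding site. No match says only that these letters are not in these 300 bases.

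NQO1 and SRXN1, the members that later passed the test by phenotype, carry no core in their windows. The 100 bases before their starts are shown with CG dinucleotides in capitals, because both starts were open in every library although their base composition differed:

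NQO1, chr16:69726561-69726660, minus strand: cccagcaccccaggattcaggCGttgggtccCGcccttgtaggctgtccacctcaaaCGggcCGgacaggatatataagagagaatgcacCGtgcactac

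SRXN1, chr20:653201-653300, minus strand: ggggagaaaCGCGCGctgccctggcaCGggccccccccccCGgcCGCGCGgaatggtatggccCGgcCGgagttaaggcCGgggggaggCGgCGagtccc

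NQO1 has 5 CG in this stretch and SRXN1 has 13. Over the 300-base windows the counts were 14 and 46, against a median of 14 over all promoters.

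Every member had 1 region at its start that was called in 12 of 12 libraries. For HMOX1 and SLC7A11 this held by definition, because their start was taken as the gene end with such a region. The KEAP1 region lay at the start at 10502771, while its farther start was touched by a peak in 1 library. At the members other than HMOX1 and SLC7A11, no start region was gained or lost. In all, 21 of the 110 regions (19.1%) were called in 12 libraries, compared with 13.6% of all regions, and 46 (41.8%) in 1 library, compared with 59.5%. The start regions differed in strength. Each peak was ranked by -log10 q, the peak caller's measure of confidence, as a percentile of its own list. NQO1, a reductase that detoxifies quinones, ranked highest, at the 97.5th to 99.3rd percentile over the 12 libraries. GPX4, which reduces lipid peroxides, followed at 87.8 to 97.7. HMOX1, which opens the heme ring, ranked lowest, at 53.2 to 80.4, and the other 7 members lay between 74.9 and 94.8, with ranges that overlapped each other.

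**Figure D1:**
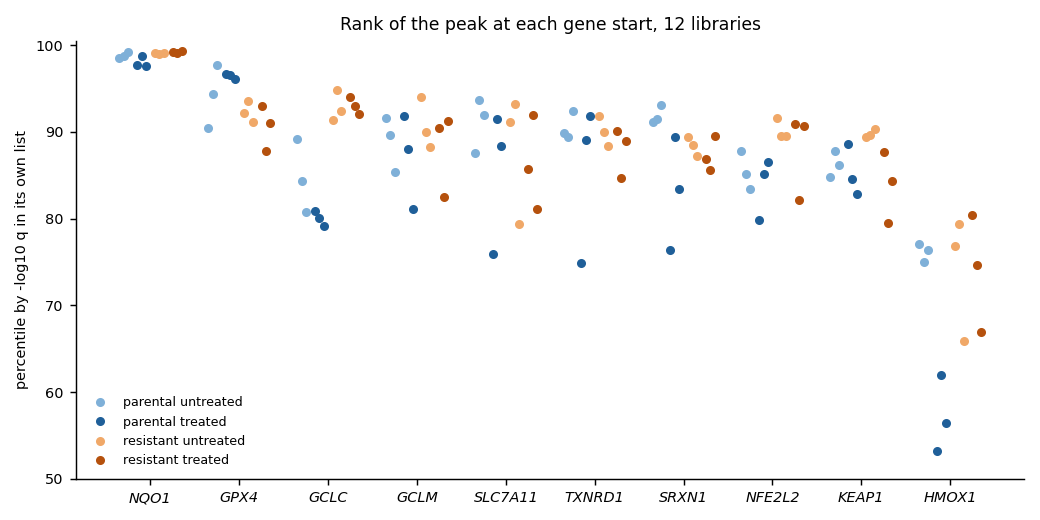
Percentile rank by -log10 q of the peak at each gene start (vertical axis, 50 to 100) for the 10 members, 1 point per library, coloured by group. NQO1 stayed at or above 97.5 in all 12 libraries, HMOX1 reached down to 53.2 in parental treated cells, and the 6 resistant libraries of GCLC all lay above the 6 parental ones.

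The start region of GCLC, the catalytic subunit of the enzyme that makes the first step of glutathione synthesis, was the only start whose rank separated the phenotypes completely. Its rank lay at 79.2 to 89.2 in the 6 parental and 91.4 to 94.8 in the 6 resistant libraries, a difference of 10.5 percentile points (exact permutation p = 0.005, adjusted p = 0.0725, so it did not pass). Of all 24148 regions called in 12 libraries, 1.71% lay as completely higher and 0.0% passed the adjusted test of rank. The p of GCLC is the smallest the design allows, so its adjusted p depended on how many regions shared it. The covered bases of the same GCLC region were 802, 815 and 690 bp in parental untreated, 558, 685 and 783 bp in parental treated, 907, 652 and 699 bp in resistant untreated and 739, 751 and 713 bp in resistant treated libraries, which overlapped. In resistant cells the NQO1 start ranked 0.709 points higher (exact permutation p = 0.02, adjusted p = 0.125). Ranked by the authors' fold over background instead, the NQO1 difference was -8.48 points and the GCLC difference 5.30 points.

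Per length, GPX4 and NFE2L2 had the most covered bases and SLC7A11 the fewest. The mean over 12 libraries was 146.5 bp per kb of window for GPX4, 90.3 for NFE2L2, 86.8 for SRXN1, 72.4 for NQO1, 56.1 for KEAP1, 53.4 for TXNRD1, 42.6 for GCLM, 33.4 for GCLC, 33.2 for HMOX1 and 7.36 for SLC7A11. Over the 12 libraries each gene overlapped the next in this order, except that SLC7A11 lay wholly below HMOX1. The median over all genes tested was 24.7 bp per kb. Windows also hold neighbours, so that peaks there can belong to either gene. That of GPX4 reaches into SBNO2 and that of NQO1 into NFAT5. The TXNRD1 window overlaps EID3, TXNRD1-AS1 and RPL18AP3.

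NFE2L2 is on chr2:177230303-177264727. Its start region, 797 bp upstream to 1295 bp into the gene with both RefSeq starts inside, was the broadest of the member starts and hardly varied, at 1742 to 2079 bp in all 12 libraries. The whole window held 4085, 4423 and 4123 bp in parental untreated, 2440, 2871 and 2923 bp in parental treated, 5371, 3664 and 5225 bp in resistant untreated and 4788, 3161 and 5071 bp in resistant treated libraries. All 3 parental treated libraries lay below all others, and the resistant groups overlapped. Resistant libraries had 1069 bp more in the window (exact permutation p = 0.055, adjusted p = 0.117). Per Mb covered in the library this difference was -6.52 bp, the opposite direction (exact permutation p = 0.54).

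The spread in NFE2L2 came from regions away from the start. The region at chr2:177228890-177230036, past the 3′ end and near the end of the pseudogene DNAJC19P5, had 175, 224 and 283 bp in parental untreated and 0, 0 and 0 bp in parental treated libraries. In resistant cells it had 996, 332 and 903 bp untreated and 766, 0 and 441 bp treated. It was a weak region, with a largest -log10 q of 3.56 and no rank above the 39.9th percentile. Its parental untreated peaks did not share 1 position. Those of replicate 2 lay at 34.691 to 34.815 and 35.739 to 35.837 kb from the start. They overlapped neither 35.02 to 35.194 kb in replicate 1 nor 35.075 to 35.357 kb in replicate 3, and wider resistant peaks joined them. Inside the gene, the region 9076 to 10363 bp from the start varied most, from 123 to 1119 bp, and was called in all libraries.

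KEAP1, the sensor, is on chr19:10486125-10503356. Its strong region lay at the start at 10502771, whereas the promoter window of the farther start at 10503356 was touched by a peak in 1 library. The window held 1554, 1820 and 1975 bp in parental untreated, 539, 821 and 936 bp in parental treated, 2102, 1188 and 1766 bp in resistant untreated and 1703, 2128 and 1789 bp in resistant treated libraries. Parental treated libraries lay below the other 9 without overlap. KEAP1 was the only member whose oxamate difference itself differed between phenotypes at an unadjusted p under 0.05: -1018 bp in parental and 188 bp in resistant cells, a difference of 1206 bp (exact permutation p = 0.03, adjusted p = 0.831). Per Mb it was 47.6 bp (exact permutation p = 0.02, adjusted p = 0.788). At this unadjusted level 4.29% of all genes had a positive interaction, and 0.0% passed the adjusted test.

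Part of that difference in KEAP1 was an internal region, chr19:10492090-10492713, with 98, 160 and 96 bp in parental untreated, 0, 0 and 0 bp in parental treated, 161, 137 and 294 bp in resistant untreated and 126, 501 and 624 bp in resistant treated libraries. The start region also had fewer bases in parental treated libraries, 363, 535 and 936 bp compared with 987, 1077 and 1278 bp untreated. Past the 3′ end, between 19.246 and 20.033 kb from the annotated start, every parental untreated and every resistant library had a peak. Of the parental treated libraries only replicate 1 had one there, at 19.59 to 19.765 kb. Of all genes tested, 36.0% had all parental treated below all parental untreated libraries.

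**Figure D2:**
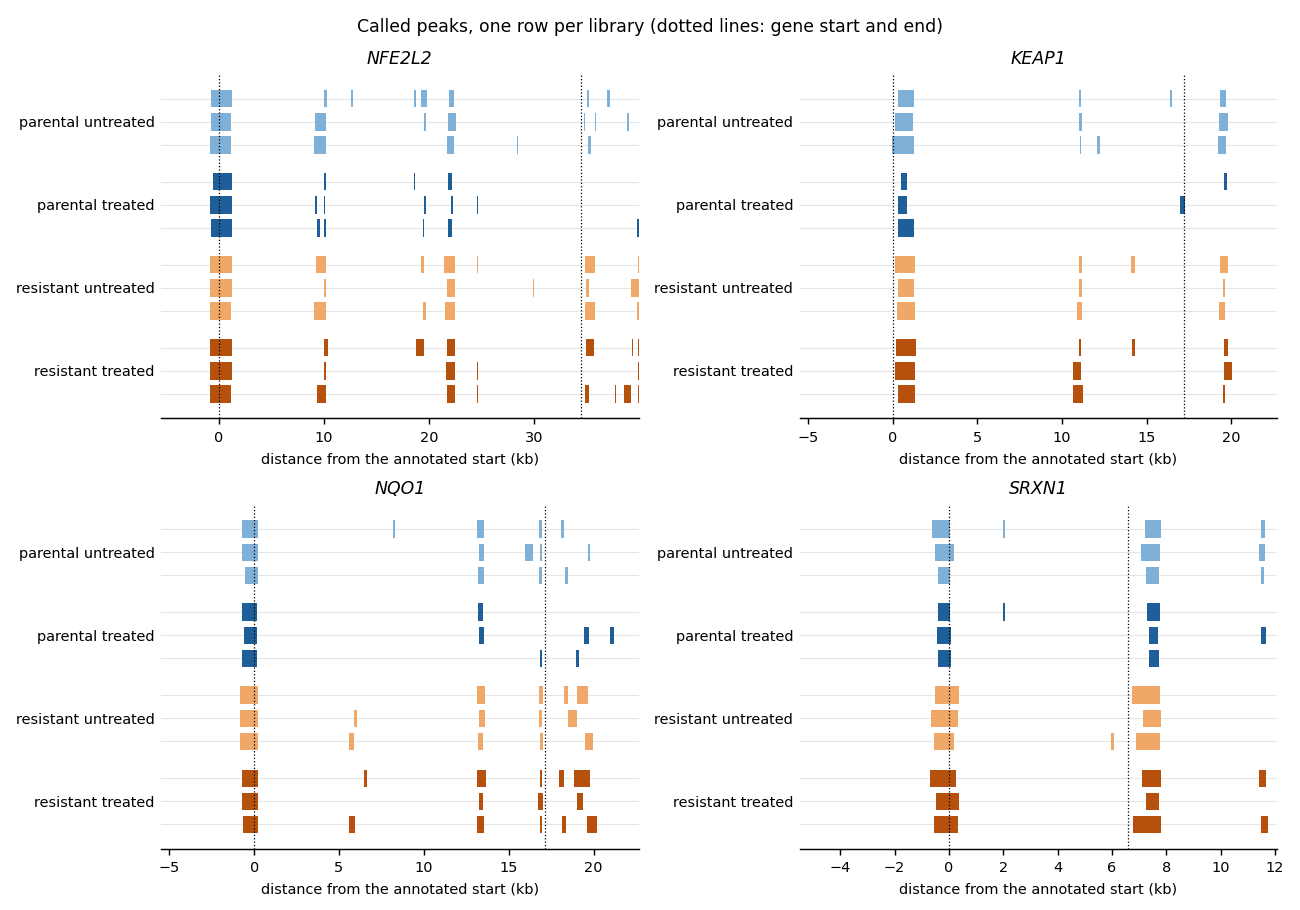
Called peaks at NFE2L2, KEAP1, NQO1 and SRXN1 in the 12 libraries (1 row each, coloured by group) against the distance from the annotated start in kb, with dotted lines at the gene start and end. The start regions were covered in every row. The internal KEAP1 peak at about 11 kb and the NFE2L2 peaks at about 35 kb, past the 3′ end, were absent from the 3 parental treated rows.

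Among the glutathione genes, GCLC had 2212, 2307 and 1914 bp in parental untreated, 1013, 1214 and 1824 bp in parental treated, 2380, 1871 and 2088 bp in resistant untreated and 2434, 1870 and 1992 bp in resistant treated libraries. Parental treated libraries again lay below untreated ones. An upstream region at -3403 to -2631 from the start was called in 12 libraries and ranked at the 90.6th to 97.4th percentile, compared with 79.2 to 94.8 for the start itself. A region past the 3′ end, chr6:53492808-53493626, had 716, 768 and 278 bp in parental untreated, 0, 0 and 82 bp in parental treated, 741, 420 and 729 bp in resistant untreated and 686, 395 and 552 bp in resistant treated libraries.

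GCLM, the modifier subunit of the same enzyme, had 2038, 1677 and 1202 bp in parental untreated, 678, 1234 and 1292 bp in parental treated, 1845, 1431 and 1728 bp in resistant untreated and 1734, 1139 and 1515 bp in resistant treated libraries. Groups that differed only in phenotype or only in treatment overlapped, while resistant untreated libraries lay above parental treated ones. SLC7A11, the cystine importer that supplies cysteine for glutathione, had no region other than that at its start in a window of 88.3 kb. It held 765, 474 and 336 bp in parental untreated, 505, 323 and 379 bp in parental treated, 592, 552 and 1118 bp in resistant untreated and 1079, 528 and 1139 bp in resistant treated libraries. GPX4 had 2176, 1735 and 1705 bp, 991, 1836 and 1557 bp, 3070, 1837 and 1740 bp, and 1763, 1771 and 2299 bp in the same order of groups. None of the 4 glutathione members passed by phenotype, with unadjusted exact permutation p from 0.05 for SLC7A11 to 0.29 for GCLM.

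TXNRD1, the reductase that keeps thioredoxin reduced, had the largest window, 144.5 kb with 46 regions, of which 7 were called in 12 libraries. It held 10104, 10049 and 8188 bp in parental untreated, 3939, 6148 and 5334 bp in parental treated, 9958, 9336 and 8072 bp in resistant untreated and 7425, 6190 and 7839 bp in resistant treated libraries. In both phenotypes all 3 treated libraries lay below all 3 untreated ones. The number of peaks in the window was 23, 28 and 18 in parental untreated, 10, 18 and 15 in parental treated, 19, 20 and 16 in resistant untreated and 15, 14 and 16 in resistant treated libraries. The difference with oxamate was -3139 bp over both phenotypes, the smallest p the design allows (exact permutation p = 0.005), but the adjusted p was 0.273. Every gene at this smallest p has that adjusted p, which depends on how many genes share it. TXNRD1 could therefore not pass by its own values.

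TXNRD1 was also the member whose direction depended most on scale. By phenotype it was 843 bp higher in resistant libraries in covered bases (exact permutation p = 0.26) but differed by -52.6 bp per Mb covered in the library (exact permutation p = 0.01, adjusted p = 0.127). Per Mb it held 403.7, 394.3 and 395.5 bp in parental untreated libraries, above the 285.7, 317.0 and 291.6 bp of parental treated, the 295.6, 365.4 and 295.4 bp of resistant untreated and the 241.8, 290.0 and 283.7 bp of resistant treated libraries. The oxamate difference kept its direction, at -73.3 bp per Mb (exact permutation p = 0.005, adjusted p = 0.605). Both TXNRD1 starts were covered in all libraries, the outer one by 300 to 600 bp. A weak region past the 3′ end, chr12:104350776-104351615, had 492, 209 and 431 bp in parental untreated, 0, 0 and 265 bp in parental treated and 0 bp in all 6 resistant libraries.

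**Figure D3:**
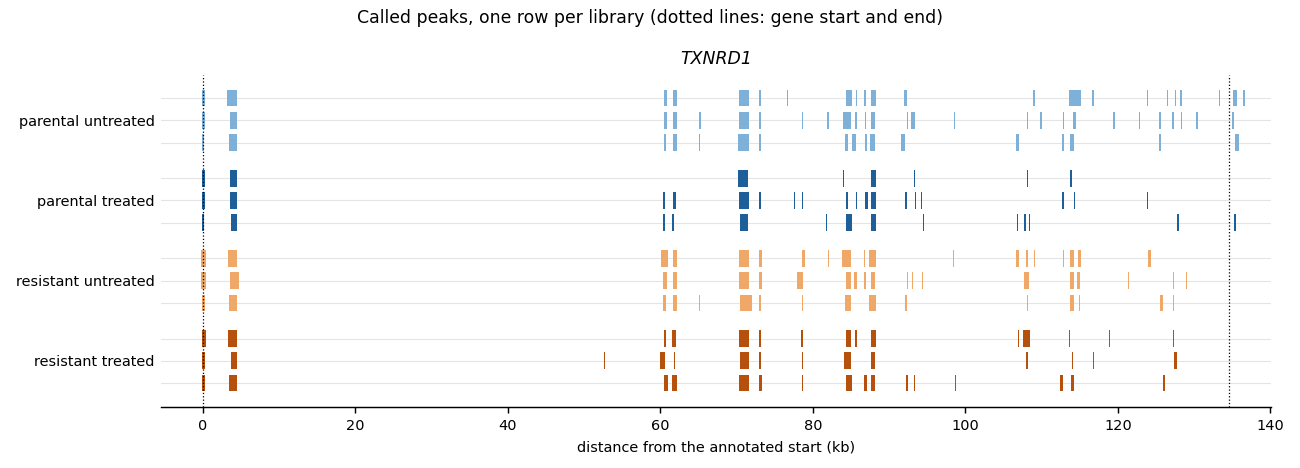
Called peaks in the TXNRD1 window in the 12 libraries (1 row each, coloured by group) against the distance from the outer start in kb. Peaks at the outer start and at the inner start, about 71 kb downstream, were in every row, and the rows of treated cells held 10 to 18 peaks compared with 16 to 28 in rows of untreated cells.

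SRXN1, the sulfiredoxin that repairs overoxidized peroxiredoxins, was higher in resistant cells. It had 1427, 1566 and 1028 bp in parental untreated, 994, 948 and 842 bp in parental treated, 1930, 1667 and 1736 bp in resistant untreated and 1809, 1309 and 2015 bp in resistant treated libraries. Within each treatment the 3 resistant libraries lay above the 3 parental ones, and across treatments only resistant treated replicate 2 fell within the parental range. The mean difference was 610 bp (exact permutation p = 0.005, adjusted p = 0.0422). Per Mb it was 7.35 bp in the same direction but not past the test (exact permutation p = 0.16, adjusted p = 0.394).

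The start region of SRXN1 accounted for much of that difference, with 644, 701 and 443 bp in parental untreated, 455, 522 and 491 bp in parental treated, 884, 1003 and 735 bp in resistant untreated and 953, 834 and 873 bp in resistant treated libraries. All 6 resistant libraries lay above all 6 parental ones, as they did for 4.96% of the regions called in 12 libraries. In this measure, which was added after the data were seen, SRXN1 (338 bp), GCLM (210 bp) and TXNRD1 (129 bp) rose in resistant cells at an adjusted exact permutation p of 0.0453, so 3 of the 10 starts passed compared with 11.0% of those regions. The SRXN1 start kept an adjusted p under 0.05 only without resistant untreated or resistant treated replicate 2, 2 of the 12 fits that left out a library. Its unadjusted exact permutation p over these 12 fits was 0.005 to 0.01. Per Mb the SRXN1 difference was 5.45 bp, while those of GCLM and TXNRD1 turned to -5.55 and -0.354 bp, and 0 of the 3 passed. A small region past the 3′ end of SRXN1, chr20:641461-641796, was called in 3 of 3 parental untreated, 1 of 3 parental treated, 0 of 3 resistant untreated and 2 of 3 resistant treated libraries.

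NQO1 separated the phenotypes completely. It had 1794, 1887 and 1394 bp in parental untreated, 1193, 1583 and 1162 bp in parental treated, 2639, 2188 and 2291 bp in resistant untreated and 3050, 1915 and 2497 bp in resistant treated libraries. All 6 resistant libraries lay above all 6 parental ones, as they did for 4.87% of all genes tested. The difference was 928 bp (exact permutation p = 0.005, adjusted p = 0.0422). NQO1 was the only member whose phenotype difference kept the smallest p the design allows per Mb, at 13.7 bp (exact permutation p = 0.005), although its adjusted p was then 0.103. Divided by the smallest peak width it did not keep it (difference 3.501 widths, exact permutation p = 0.06, adjusted p = 0.249). Per Mb it held 71.7, 74.0 and 67.3 bp in parental untreated, 86.5, 81.6 and 63.5 bp in parental treated, 78.3, 85.6 and 83.8 bp in resistant untreated and 99.3, 89.7 and 90.4 bp in resistant treated libraries.

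Much of the NQO1 difference lay past its 3′ end and not at its start. The region at chr16:69706374-69708045, between NQO1 and NFAT5 and near the end of SNORD13H, had 0, 119 and 0 bp in parental untreated, 0, 291 and 143 bp in parental treated, 664, 491 and 470 bp in resistant untreated and 941, 386 and 563 bp in resistant treated libraries. It was present in all 6 resistant and in 3 of the 6 parental libraries and stayed weak, at or below the 36.1st percentile of its lists. The start region measured 734 to 1067 bp. With the gene span alone and no flanks, the NQO1 difference was 294.5 bp (exact permutation p = 0.05, adjusted p = 0.136).

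HMOX1 had 811, 734 and 849 bp in parental untreated, 483, 382 and 604 bp in parental treated, 1148, 783 and 854 bp in resistant untreated and 985, 764 and 797 bp in resistant treated libraries. Its parental treated libraries lay below the other 9. Resistant libraries had 245 bp more (exact permutation p = 0.02, adjusted p = 0.0676), a difference that was 0.455 bp per Mb (exact permutation p = 0.875). Outside the start it had 1 region, at -4203 to -3930, called in 4 libraries.

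**Figure D4:**
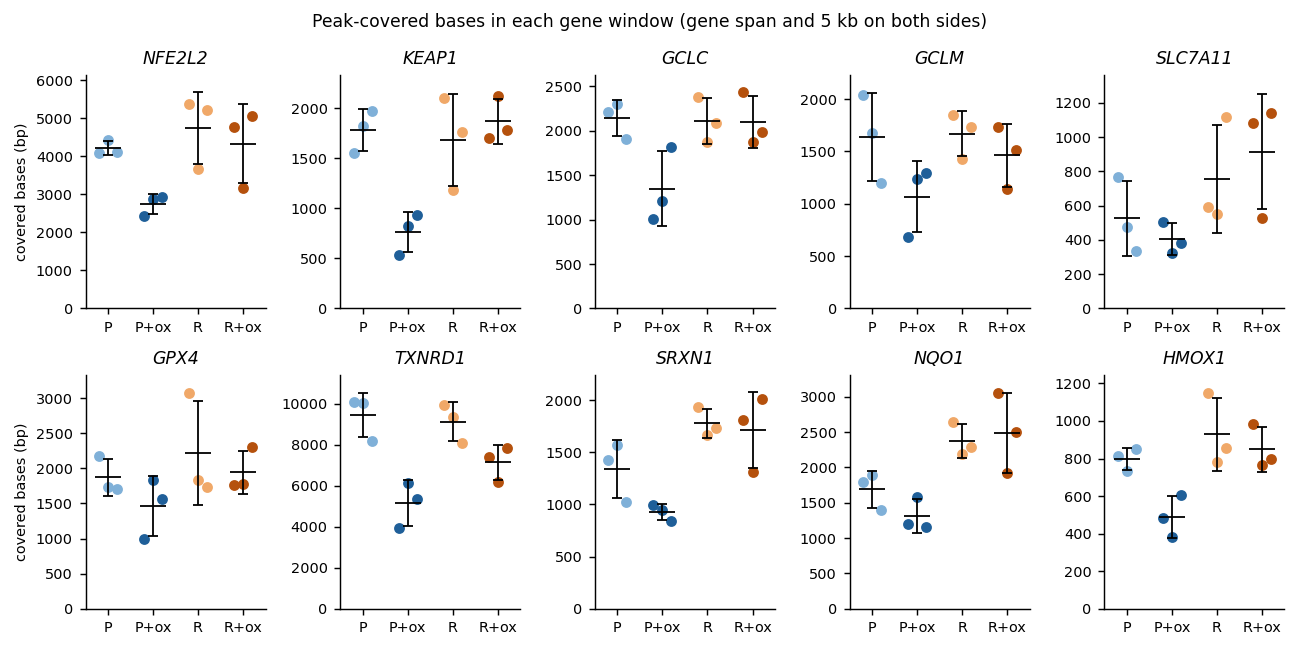
Covered bases in the window of each member (vertical axis, bp, from 0) for parental (P) and resistant (R) cells without and with oxamate (+ox), with 1 point per library and the mean and SD of 3. All 6 resistant libraries lay above the parental ones for NQO1, and the 3 parental treated points lay below all others for NFE2L2, KEAP1, GCLC, TXNRD1, SRXN1 and HMOX1.

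Read over the 10 members, the phenotype differences followed those of the genome. By phenotype, 2 of 10 members (SRXN1 and NQO1) rose at an adjusted exact permutation p under 0.05, compared with 11.9% of all genes tested. At an unadjusted p under 0.05, 3 of 10 were higher in resistant libraries, compared with 42.9% of genes, and 0 were lower (0.253% of genes). All 10 differences were above 0, as were 91.7% of those of all genes, and their median was 459 bp against 309 bp over all genes. Per Mb covered in the library, 5 of 10 differences were above 0, against 48.4% of genes, and 0 of 10 passed the adjusted test. Then NQO1 was higher at an unadjusted p under 0.05 (10.1% of genes) and TXNRD1 lower (11.2% of genes).

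Both calls were close to the threshold. Left out 1 library at a time, SRXN1 and NQO1 kept an adjusted p under 0.05 in 3 of 12 fits, those that left out replicate 2 of the parental untreated, of the resistant untreated or of the resistant treated group. Without resistant untreated replicate 2, 4 members passed (30.1% of genes). In the other 9 fits the adjusted exact permutation p was higher than 0.05, up to 0.0864 for both. Over the 12 fits the difference stayed between 532 and 711 bp for SRXN1 and between 787 and 1071 bp for NQO1. Their unadjusted exact permutation p was 0.005 to 0.015 for SRXN1 and 0.005 to 0.01 for NQO1. The adjusted p also moves with how many other genes reach a small p in a fit. Scaled by the narrowest peak width of the library instead, neither passed (adjusted exact permutation p = 0.436 for SRXN1 and 0.249 for NQO1).

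By treatment, 9 of 10 members had fewer covered bases with oxamate, as had 88.8% of genes. Of the members, 0 of 10 passed the adjusted exact permutation test, as did 0.0% of genes. With few assignments, a gene at the smallest p passes only if many other genes reach it. This 0 therefore cannot decide whether single members differed with oxamate. At an unadjusted p under 0.05, NFE2L2 (-939.5 bp), TXNRD1 (-3139 bp) and HMOX1 (-194 bp) were lower, 3 of 10 compared with 15.0% of genes. SLC7A11 was the exception in direction, at 19.3 bp. Per Mb, TXNRD1 alone stayed below an unadjusted p of 0.05, and the differences of GPX4, SRXN1 and NQO1 turned positive, to 1.86, 0.999 and 8.37 bp per Mb. The oxamate difference was then -9.60 bp per Mb for NFE2L2 (exact permutation p = 0.395) and -2.29 bp per Mb for HMOX1 (exact permutation p = 0.53).

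Group by group, 3 libraries against 3 cannot give an exact p below 0.1, so separation is described without a call. In parental cells, treated libraries all lay below untreated ones for 6 of 10 members (NFE2L2, KEAP1, GCLC, TXNRD1, SRXN1 and HMOX1), compared with 36.0% of genes, and per Mb for KEAP1 and TXNRD1 (9.9% of genes). In resistant cells this held for TXNRD1 (4.99% of genes, and 3.2% per Mb). The reverse, resistant treated wholly above untreated, held in bp for 0 members (1.14% of genes) and per Mb for NQO1 (4.45%). Untreated, resistant libraries all lay above parental ones for SRXN1 and NQO1 (18.2% of genes), and per Mb for NQO1 (6.51%), while GCLC and TXNRD1 lay wholly below per Mb (9.2%). Without parental untreated replicate 1 or without resistant untreated replicate 2, the untreated count above parental in bp became 4. Fewer libraries must then separate, so the 18.2% of genes is not its comparison. Treated, resistant libraries all lay above parental ones for 8 of 10, all but GCLM and GPX4 (50.3% of genes), and per Mb for KEAP1 and NQO1 (14.8%). For NQO1, resistant libraries thus lay above parental ones in bp and per Mb, with and without oxamate, but overlapped them in both when divided by the smallest peak width.

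**Figure D5:**
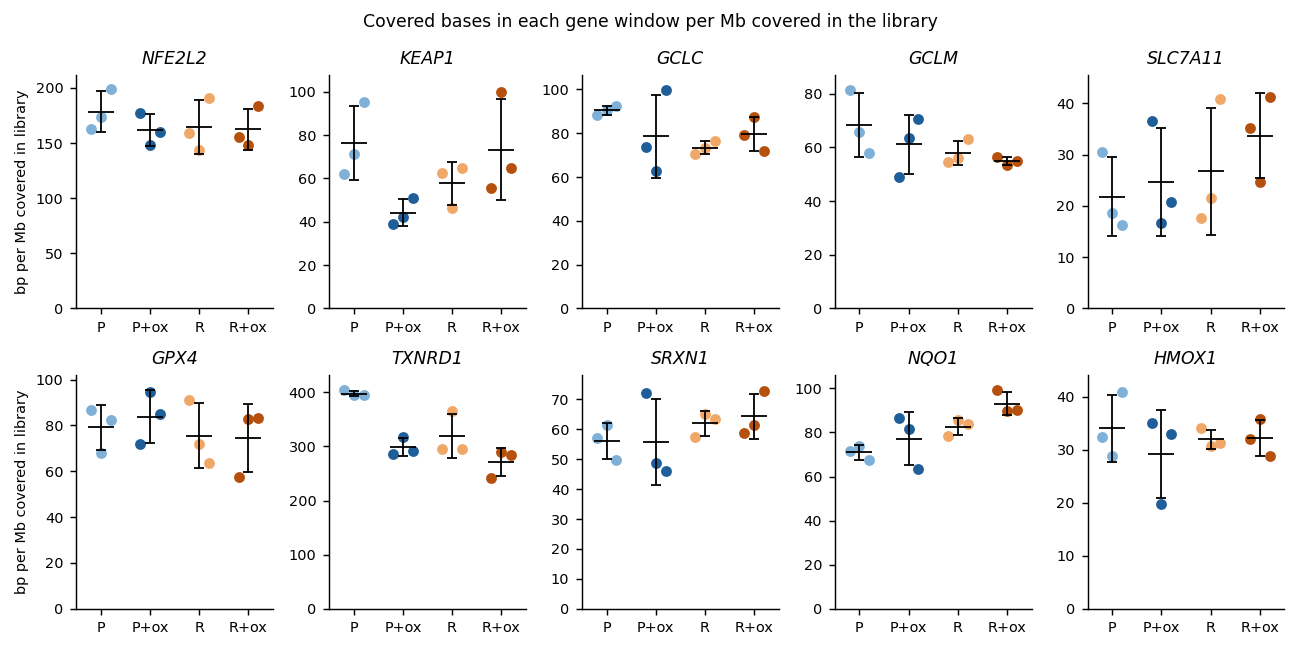
The same windows in bp per Mb covered in the library (vertical axis, from 0), with 1 point per library and the mean and SD of 3. On this scale the resistant points of NQO1 lay above the parental ones within each treatment, parental treated KEAP1 lay below parental untreated KEAP1, and TXNRD1 was highest in parental untreated cells.

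Few member regions appeared or vanished between groups. With oxamate in parental cells, 2 of 110 regions went from 3 of 3 libraries to 0 of 3, those of NFE2L2 past the 3′ end and inside KEAP1 described above (0.921% of all regions), and 0 were gained (0.117%). The NFE2L2 region joined untreated peaks that did not all overlap each other. The count of 2 lost regions rose to 4, 7, 6 and 5 when parental untreated replicate 1 or 3 or parental treated replicate 2 or 3 was left out. With 1 library fewer, fewer calls are needed for a region to count. Counts from such fits can therefore not be set against the shares of all regions given here. The KEAP1 region was also called in 3 of 3 resistant treated and 0 of 3 parental treated libraries (1 of 110, 1.41% of all regions). Untreated, the TXNRD1 and SRXN1 regions past their 3′ ends were called in 3 of 3 parental and 0 of 3 resistant libraries (2 of 110, 0.28% of all regions), which became 1 without parental untreated replicate 1 and 4 without parental untreated replicate 3. With peaks of -log10 q under 3 set aside, both of these losses counted 0. Resistant against parental, 0 of 110 were gained untreated (0.443% of all regions) and 0 were lost treated (0.433%). Oxamate in resistant cells changed 0 of 110 in this way, compared with 0.138% of all regions gained and 0.159% lost. By Fisher's exact test over 6 against 6 libraries, 0 member regions passed at an adjusted or an unadjusted p under 0.05 (adjusted, 0.0% of the 9507 regions tested). Unadjusted, 8.71% of those regions were called more often in resistant and 2.7% in parental libraries, and 0.0526% more often in treated and 1.34% in untreated ones.

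Other genes of the pathway were measured in the same way. Of 43 further genes of NRF2 regulation, glutathione, thioredoxin and peroxide removal, quinone handling, iron and heme, lipid peroxidation and NADPH supply, 42 could be tested. By phenotype 7 rose at an adjusted exact permutation p of 0.0422 and 0 fell, against the 11.9% of all genes given above, with a median difference of 432 bp over the list and 309 bp over all genes. By treatment 0 of 42 passed and 9 were lower at an unadjusted p under 0.05 (15.0% of all genes), with a median of -394 bp against -180 bp over all genes. In parental cells 20 of 42 had all treated libraries below the untreated ones, compared with 36.0% of all genes.

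The 7 genes were SQSTM1, SOD2, SLC3A2, FTH1, BACH1, NFE2L1 and BLVRB. SQSTM1, the autophagy receptor that binds KEAP1, rose by the most, from 4726 ± 1708 bp in parental to 7854 ± 1250 bp in resistant libraries (SD, n = 6 each), and was 59.6 bp per Mb higher. The mitochondrial superoxide dismutase SOD2 went from 3865 ± 648 to 6566 ± 1044 bp and was higher by 46.8 bp per Mb. SLC3A2, the partner chain of SLC7A11 in the cystine importer, went from 3720 ± 844 to 5270 ± 856 bp. The ferritin heavy chain FTH1, which stores iron, went from 2577 ± 835 to 3739 ± 382 bp. BACH1, a repressor that competes with NRF2 at response elements, had 714, 719 and 793 bp in parental treated libraries and 1942 to 2686 bp in the other 9. NFE2L1, an NRF2 relative, and BLVRB, a biliverdin reductase, rose by 384 and 239 bp but turned to -2.48 and -16.6 bp per Mb. The phenotype difference per Mb was 8.53 bp for SLC3A2, 12.4 bp for FTH1 and 20.3 bp for BACH1. Per Mb none of the 7 passed the adjusted exact permutation test, with adjusted p from 0.156 for SOD2 to 0.766 for NFE2L1.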

How the data were processed

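ATAC-seq peak lists of 12 MIAPaCa2 libraries were used, grouped by sample title into 4 groups of 3. The authors removed mitochondrial, duplicate and non-uniquely mapped reads aligned to hg38 with Bowtie2 (2.1.0 in the submitters' processing notes) and called broad peaks per library with MACS2 in paired-end mode. Other MACS2 settings are not given in the sources used here. Each deposited list holds positions, a score, a fold ratio over background, and the -log10 of the p-value and q-value. The lists hold no counts, so absolute depth is unknown and no counting interval was derived. Relative depth was recovered, list by list, from the commonest combination of fold and -log10 p together with the smallest peak width.

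Chromosomes 1 to 22 and X were kept, which left out 0.892% of 677901 peaks. Covered bases in gene windows, region presence and percentile ranks by -log10 q were computed with Python 3.11.15, NumPy 2.4.6, pandas 2.3.3 and SciPy 1.17.1. Gene spans and promoter sequences came from RefSeq tables of GRCh38, without strand for genes lacking a promoter entry (HMOX1 and SLC7A11), whose start was taken as the gene end that carried a region in 12 libraries. Phenotype, treatment and interaction were tested per gene by two-sided exact permutation within strata (400 assignments, smallest p 0.005), with Benjamini-Hochberg adjustment over 16974 genes or 24148 regions. At the smallest p, the adjusted p is set by how many genes or regions share it. A count of 0 past the adjusted permutation test can therefore not exclude differences at single genes. Fisher's exact test was run on regions called in 5 to 7 libraries. The code was tested on simulated data. The members and gene lists were chosen with earlier results of these data known. All 10 members are named. Of the other pathway genes, those named passed the adjusted threshold by phenotype, and the regions named were gained or lost between 3 and 3 libraries or carried much of a member's difference, the latter chosen after their values were seen. The covered bases of start regions and the scaling by smallest peak width were added after the data were seen. Alternatives covered the peak threshold, list length, window, scaling, filter, ranking, overlap, replicate block and each library left out. The genes whose profile was most like that of NFE2L2 are not reported here.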

Additional observations from a re-analysis of the deposited data

How the results depend on the processing

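Scaling changed several directions. Per Mb covered in the library, the count of members past the adjusted test by phenotype went from 2 to 0, and the differences turned to -6.52 bp for NFE2L2, -7.98 for GCLC, -8.34 for GCLM, -6.46 for GPX4 and -52.6 for TXNRD1. By treatment they turned to 1.86 for GPX4, 0.999 for SRXN1 and 8.37 for NQO1. Of the starts, 0 passed, and GCLM turned to -5.55 and TXNRD1 to -0.354. Members whose parental treated libraries all lay below untreated ones went from 6 to 2. Resistant treated above untreated went from 0 (1.14% of genes) to 1, NQO1 (4.45%). Untreated resistant above parental went from 2 to 1, and below from 0 (0.831% of genes) to 2 (9.2%). Treated resistant above parental went from 8 to 2. Divided by the smallest peak width, 0 members and 0 starts passed by phenotype, and the differences turned to -1.93 widths for NFE2L2, -2.32 for GCLC, -2.44 for GCLM, -1.92 for GPX4 and -15.8 for TXNRD1, and at the starts to -1.56 for GCLM and -0.0736 for TXNRD1. Untreated resistant above parental then counted 0 (3.74% of genes), below 3 (19.5%), and treated resistant above 2 (17.1%).

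When only peaks with a -log10 q of 3 or more were kept, 5 members passed by phenotype (41.5% of genes), resistant treated below untreated counted 0, regions lost on oxamate in parental cells 0, and, resistant against parental, regions gained 1 and lost 0 untreated and gained 2 treated. With the gene span alone, 0 passed by phenotype, GCLC turned to -19.3 bp, and untreated resistant above parental counted 1. With every list cut to its top-ranked peaks at the length of the shortest, 1 region was lost on oxamate in parental cells, 1 was gained and 1 lost untreated by phenotype, and NQO1 by treatment turned to 144.5 bp. With peaks covering at least 50% of a region, 1 was lost on oxamate in parental cells, 0 lost untreated by phenotype and 3 gained treated. The shares of all regions under these changed settings are not given here, so these region counts have no comparison. Ranked by fold, NQO1 turned to -8.48 points.

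With the replicate number as a block, 0 members and 0 starts passed the adjusted test by phenotype. Blocking leaves fewer assignments than the 400 of the main test, so its smallest p is above 0.005. The 0 therefore cannot decide whether the calls hold. At an unadjusted exact permutation p under 0.05, 3 of 10 members were higher in resistant libraries with the block, compared with 22.6% of genes. Without the block these were 3 of 10 and 42.9%. The labels do not say whether the replicate numbers pair the libraries. Over 18 pairs of same-numbered libraries the correlation of deviations ran from -0.355 to 0.527, with 5 over 0.1. The highest were between resistant untreated and resistant treated libraries, at 0.451 for replicate 1 and 0.527 for replicate 2. Replicate 3 of these groups gave -0.0216. Whether libraries of the resistant groups were paired was not tested.

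Leaving out each library in turn gave 0 to 4 members and 0 to 4 starts passing by phenotype. Shares of all genes or regions are not given beside the counts of this paragraph, so these counts have no comparison here. Counts of separated members ran from 2 to 4 (untreated resistant above parental), 0 to 1 (below) and 1 to 2 (resistant treated below untreated). Regions ran from 3 to 7 lost on oxamate in parental cells, 0 to 1 gained and 0 to 1 lost on oxamate in resistant cells, 0 to 2 gained and 1 to 4 lost untreated by phenotype, and 1 to 3 gained and 0 to 1 lost treated. With 1 library fewer, fewer calls are needed for a region to count. The oxamate difference ran from -36.6 to 116 bp for SLC7A11 and from -273 to 10.9 bp for NQO1. The lists hold no reads, so weak regions near the calling threshold cannot be told from missed ones.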

Other observations

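Summed over the 10 windows, the members held 1046 to 1097 bp per Mb covered in the parental untreated libraries. The sums were 895 to 927 bp per Mb in parental treated, 921 to 974 bp per Mb in resistant untreated and 872 to 975 bp per Mb in resistant treated libraries. Parental untreated libraries thus lay above the other 9, but only with TXNRD1, the largest window, in the sum. Over the other 9 members the sums were 652 to 702 bp per Mb in parental untreated, 578 to 641 in parental treated, 594 to 679 in resistant untreated and 630 to 692 in resistant treated libraries, so that parental untreated overlapped both resistant groups. These sums are descriptions of 12 libraries and were not tested.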
